A study of Mus musculus with 4 samples.

Results

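Esrrb, the gene of oestrogen-related receptor beta, held 7 of the 1857 HA-hWDR5 peaks deposited for mouse embryoid bodies, 5 of 660 after rescue at T48h and 2 of 1197 after rescue at T12h. A peak was counted for Esrrb when its summit lay inside the gene or within 20 kb of either end in the RefSeq annotation of GRCm38.p6, the build mm10. All 7 summits lay inside the gene itself. The gene was chosen by the peaks listed in it, that is by the number of T48h and T12h summits it holds, so their number, folds and tags are a description and none of them was tested. The T48h sample was an anti-HA ChIP-seq library from embryoid bodies of genotype Wdr5 KO in which doxycycline, added at T48h, induced HA-tagged human WDR5. The T12h sample was the same ChIP from Wdr5 KO embryoid bodies that received doxycycline at T12h. Both derived from Rx:GFP knock-in mouse stem cells, were grown by the SFEBq method, a quick serum-free aggregation of stem cells, in 5% KSR with 2% Matrigel from day 1, and were taken at day 6. Cells of both rescues were fixed with the crosslinkers DSG (2 uM, 30 min) and PFA (1%, 10 min), and 15 ug of antibody was used. Each library had an input library of the same rescue. The event from which T48h and T12h are counted, the promoter of the transgene and the number of clones are not given in the sources used here.

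Esrrb encodes an orphan nuclear receptor that binds DNA without a known natural ligand. In mouse embryonic stem cells it belongs to the transcription factor network of naive pluripotency, together with Pou5f1, Sox2, Nanog and Klf4, and its expression falls as the cells leave that state. WDR5 is a WD40-repeat subunit shared by the MLL and SET1 complexes, which methylate lysine 4 of histone H3 at active genes.

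With 1 ChIP library per rescue time there was no replicate, and differences between T48h and T12h compare these libraries and not the conditions. After duplicate removal the ChIP libraries held 67116740 tags at T48h and 55539917 at T12h, and the controls 61209779 at T48h and 54011542 at T12h. The peak lists carry no expression values, so the loss of mouse Wdr5 could not be checked, and Wdr5 and Rax had 0 peaks within 20 kb at either time.

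Esrrb spans 160.5 kb of chromosome 12, from 86361117 to 86521628 on the plus strand. The RefSeq promoter table gives it 2 start sites, at 86361117 and 86421644. The 7 peaks fell at 5 places, called sites 1 to 5 in their order along the gene. Sequence could be read for part of site 1, which lies at the upstream start, and for the windows around both start sites, so these are the stretches shown. Capitals mark CpG dinucleotides, which are frequent at promoters of active genes, and in site 1 also the letters TTTATA, the reverse complement of TATAAA. All 3 are on the plus strand of GRCm38.p6 and come from RefSeq.
Site 1, its first 182 of 356 bases, chr12:86361241-86361422: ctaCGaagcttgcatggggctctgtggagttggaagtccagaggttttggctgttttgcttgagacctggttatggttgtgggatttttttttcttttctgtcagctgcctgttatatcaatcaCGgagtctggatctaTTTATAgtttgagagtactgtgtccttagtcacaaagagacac
Upstream start of Esrrb, chr12:86360867-86361166: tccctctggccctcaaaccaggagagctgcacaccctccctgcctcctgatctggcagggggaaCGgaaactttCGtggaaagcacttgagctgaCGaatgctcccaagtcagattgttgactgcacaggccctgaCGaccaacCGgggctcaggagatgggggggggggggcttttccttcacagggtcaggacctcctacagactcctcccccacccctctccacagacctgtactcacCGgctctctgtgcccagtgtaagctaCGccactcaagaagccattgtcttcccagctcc
Downstream start of Esrrb, chr12:86421394-86421693: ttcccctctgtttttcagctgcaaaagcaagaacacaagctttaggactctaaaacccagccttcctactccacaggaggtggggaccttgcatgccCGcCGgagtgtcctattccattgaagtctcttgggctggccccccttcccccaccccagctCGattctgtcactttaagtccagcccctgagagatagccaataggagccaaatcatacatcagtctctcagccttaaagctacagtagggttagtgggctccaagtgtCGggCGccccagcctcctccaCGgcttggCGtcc

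The stretch of site 1 is known because it lies in the promoter window of Gm40483, a lncRNA gene on the minus strand that starts at 86361172 and runs away from Esrrb. It covers 51.1% of the peak and ends 56 bases before the summit. Its GC content was 43.4% with 2 CpG, while the first 182 bases of all 32851 promoter windows in the table had a median of 4 CpG. The GC content was 60% with 7 CpG at the upstream start and 55.3% with 7 CpG at the downstream start, against medians of 52.7% and 7 CpG over all windows.

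In all, 5 motifs were searched on both strands. They were AGGTCA, the core site of nuclear receptors, AAGGTCA, the site of oestrogen-related receptors, which contains AGGTCA, the E-box CACGTG, the GC box GGGCGG and the TATA box TATAAA. The windows of the 2 Esrrb start sites held 0 matches to any of the 5. Of all windows, 16.3% held AGGTCA, 4.72% AAGGTCA, 7.15% CACGTG, 35.7% GGGCGG and 13.6% TATAAA. The site 1 stretch held 1 match, TATAAA on the strand of Gm40483, a match found in 8.45% of windows cut to the same length. It was found by its letters alone. The stretch begins at 86361241, away from the Gm40483 start at 86361172, and whether the match acts as a TATA box was not tested. The first 182 bases held AGGTCA in 10.3% of windows, AAGGTCA in 3.06%, CACGTG in 3.76% and GGGCGG in 21.4%.

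At T48h the sites lay at the upstream start and in the downstream part of the gene, with none near the downstream start. Site 1, from 86361241 to 86361596, had its summit 361 bp inside the upstream start of Esrrb and 306 bp from the start of Gm40483. A summit within 1 kb of either gene end was found for 1.06% of protein-coding genes at T48h and for 2.93% at T12h. Site 2, from 86470084 to 86470560, lay 109 kb into the gene, and the downstream start was 48.8 kb before its summit. Site 3, from 86506288 to 86506603, lay 145 kb into the gene, or 90.6% along it. Site 4, from 86514209 to 86514625, followed at 153 kb, and site 5, from 86518814 to 86519182, at 158 kb and 2.75 kb before the gene end. Neighbouring T48h summits were thus 109, 36, 7.85 and 4.55 kb apart, and sites 3 to 5 lay at 90.6% to 98.3% of its length. The annotation used here gives gene spans without exons, so the sites were not placed in exons or introns.

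At T12h the gene had a peak at sites 2 and 5 and none at the upstream start. The T12h peak of site 2 ran from 86470150 to 86470607 and that of site 5 from 86518778 to 86519103. Their summits lay 45 bp from the T48h summit at site 2 and 9 bp from it at site 5. The overlap was 411 bp at site 2 and 290 bp at site 5. Of all peaks, 34.4% at T48h overlapped a T12h peak and 18.8% at T12h overlapped a T48h peak. At Esrrb the numbers were 2 of 5 at T48h and 2 of 2 at T12h.

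**Figure D1:**
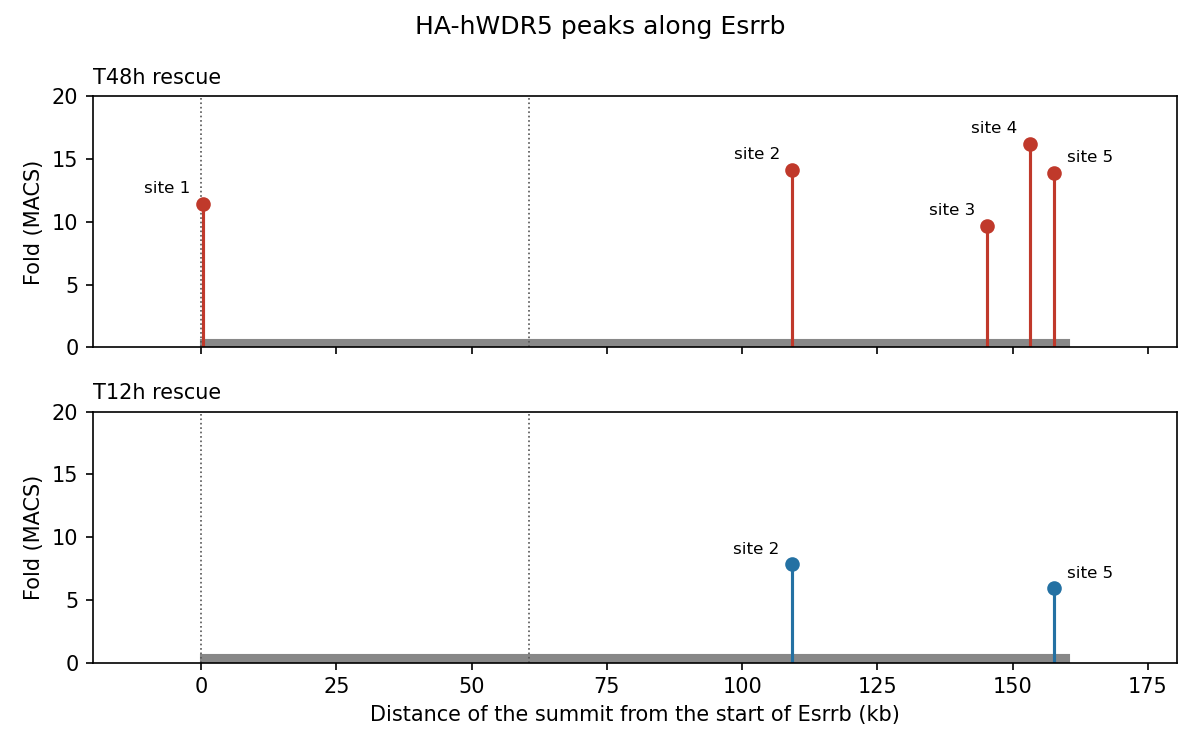
Deposited fold of each HA-hWDR5 peak (vertical axis) against the distance of its summit from the start of Esrrb in kb (horizontal axis), at T48h (upper panel) and T12h (lower panel). The grey bar is the gene, dotted lines are its 2 annotated start sites, and the 5 T48h peaks reach folds of 9.7 to 16.25 while the 2 T12h peaks stand at 7.86 and 5.92.

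The tag count of a peak is the number of ChIP tags in its region, and the intervals given with it are exact Poisson 95% intervals that cover counting error only. At T48h site 2 held the most tags, 91 (73.3 to 112) over 477 bp. Site 4 held 73 tags (57.2 to 91.8) over 417 bp, and site 5 held 59 (44.9 to 76.1) over 369 bp. Site 1 held 53 tags (39.7 to 69.3) over 356 bp, and site 3 held the fewest, 43 (31.1 to 57.9) over 316 bp. At T48h the order by tags was also the order by width, and the intervals of neighbours in that order overlapped. Per kb of peak the T48h sites ranged from 136 tags at site 3 to 191 at site 2. At T12h site 2 held 55 tags (41.4 to 71.6) over 458 bp and site 5 held 27 (17.8 to 39.3) over 326 bp, or 120 and 82.8 tags per kb. In all, the Esrrb peaks held 319 tags (285 to 356) over 1935 bp at T48h and 82 (65.2 to 102) over 784 bp at T12h. These sums cover different lengths and therefore move with how much was called.

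To compare the libraries, tags were scaled to RPM, the tags of a peak per 1000000 filtered tags of its library. Site 2 had 1.36 RPM (1.09 to 1.66) at T48h and 0.99 (0.746 to 1.29) at T12h. The ratio was 1.37 with an exact conditional 95% interval of 0.969 to 1.95. Site 5 had 0.879 RPM (0.669 to 1.13) at T48h and 0.486 (0.32 to 0.707) at T12h, a ratio of 1.81 (1.13 to 2.97). These intervals cover counting error only. The regions compared were called separately, 477 bp wide at T48h and 458 bp at T12h for site 2, and 369 bp at T48h and 326 bp at T12h for site 5, so the ratios also move with the called width.

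**Figure D2:**
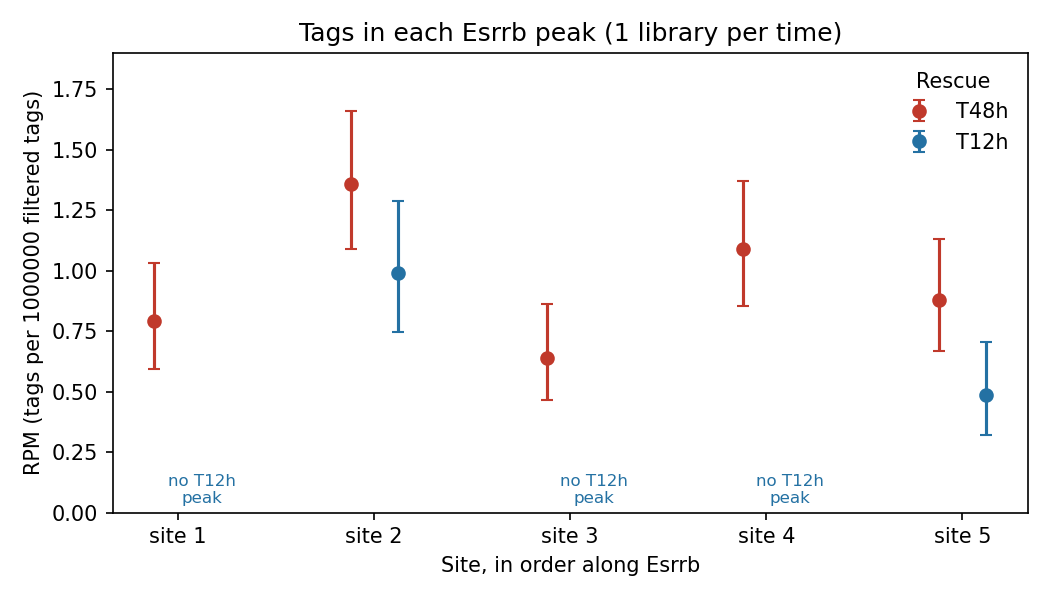
RPM of each Esrrb peak (tags per 1000000 filtered tags, vertical axis) at sites 1 to 5 in order along the gene, with T48h in red and T12h in blue. Points are single libraries and bars are exact Poisson 95% intervals; the T48h points lie at 0.79, 1.36, 0.641, 1.09 and 0.879, and T12h has points of 0.99 at site 2 and 0.486 at site 5.

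The fold is the enrichment over the local background as deposited by the authors. The score is their peak p-value on a negative log10 scale multiplied by a constant, larger for smaller p. With the p cutoff of 1e-05 the lowest scores were 50.02 at T48h and 50.01 at T12h. At T48h the fold was highest at site 4 (16.25), followed by site 2 (14.15), site 5 (13.93), site 1 (11.47) and site 3 (9.7). All 5 were above the median fold of the T48h list, 7.66. They stood at places 71, 91, 95, 121 and 172 of 660 by fold. By score they ran from 338.34 at site 2, place 89, to 98.07 at site 3, place 170, and the list's median score was 63.83. At T12h the fold was 7.86 at site 2 and 5.92 at site 5, on either side of the T12h median of 7.31. Site 2 stood at place 504 of 1197 by fold and 235 by score (190.6), and site 5 at place 910 by fold and 542 by score (82.91). The deposited false discovery rate was 2.22% to 5.29% for the T48h sites, where the list's median was 9.62%, and 2.98% and 2.21% for sites 2 and 5 at T12h, where the median was 3%.

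Both places listed at each time therefore had the higher fold at T48h, and most other such places did not. Across the 228 overlapping pairs of T48h and T12h peaks, 14.0% had the higher fold at T48h. The median fold of these pairs was 8.77 at T48h and 14.4 at T12h, and the median ratio of T48h to T12h was 0.679. At Esrrb that ratio was 1.8 at site 2 and 2.35 at site 5, at places 7 and 2 of 228. In RPM, the median ratio over the pairs was 0.619, beside 1.37 at site 2 and 1.81 at site 5. The gene was chosen with these values known, so its places in this order are given without a test.

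**Figure D3:**
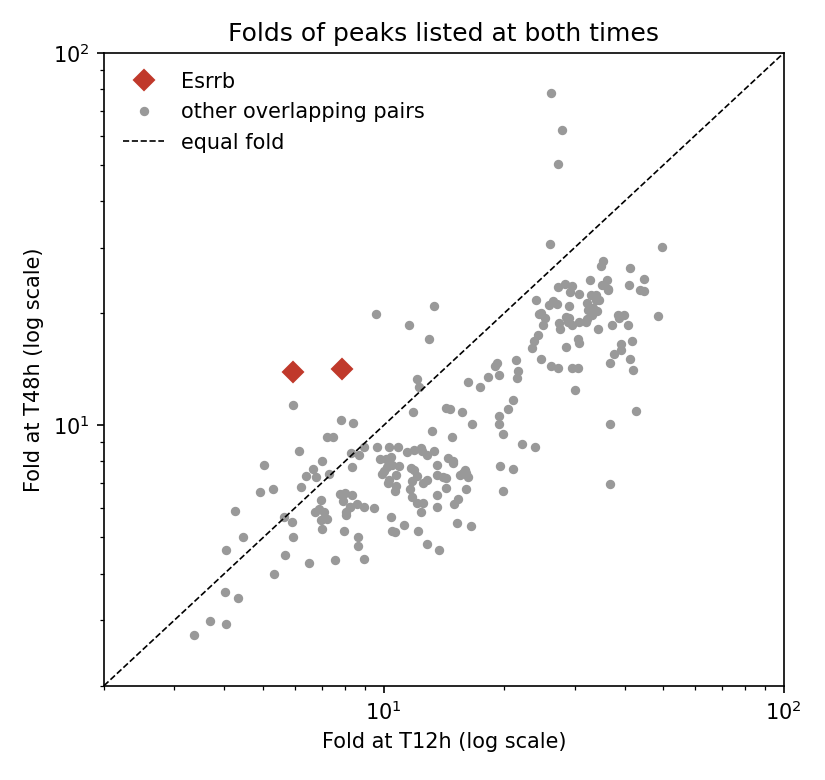
Fold at T48h (vertical axis, log scale) against fold at T12h (horizontal axis, log scale) for the 228 overlapping pairs of peaks, with the Esrrb pairs as red diamonds and equal fold as a dashed line. Most pairs lie below the line, with 14.0% above it, and the Esrrb pairs lie above it, with 14.15 at T48h and 7.86 at T12h for site 2 and 13.93 at T48h and 5.92 at T12h for site 5.

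Sites 1, 3 and 4 had a T48h peak and no T12h peak. Among the 433 T48h peaks without a T12h counterpart, site 4 was at place 3 by score and 5 by fold, site 1 at 8 and 28, and site 3 at 26 and 66. The median fold of those 433 peaks was 7.31 and their median tag count 25. The T12h tags at these sites were not analysed here, and a place with no listed peak may hold tags below the limit of the peak caller, whose weakest T12h call had a score of 50.01.

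No further summit lay within 50 kb of Esrrb at either time. The nearest T48h summit before it was 743 kb away, inside Jdp2, which encodes an AP-1 family repressor, with 23 tags over 224 bp and a fold of 9.75. The nearest T48h summit after it was 1450 kb away with a fold of 6.78. At T12h the nearest summits were 1020 kb before the gene, 255 bp from an end of the kinase gene Nek9 and with a fold of 5.87, and 14200 kb after it, with a fold of 7.28. Of 73 other annotated genes within 1 Mb of Esrrb, 2 had a summit inside or within 20 kb at T48h, against 2.62% of all 49976 genes. These were Jdp2 and Gm40483, which counts through site 1. At T12h 1 of the 73 had such a summit, against 5.45% of all genes. That gene was Tmed10, which encodes a cargo receptor of the early secretory pathway, with 29 tags and a fold of 5.87 at the same peak near Nek9.

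Few protein-coding genes held as many T48h peaks as Esrrb, which was chosen by these peaks. Longer genes have more room for summits, and per 100 kb of gene Esrrb was at place 143 at T48h. A summit inside or within 20 kb was found for 3.48% of the 21896 protein-coding genes at T48h and 7.69% at T12h. At T48h 0.215% had 2 or more, 7 genes, 0.0320%, had 3 or more, and 2 genes, 0.00913%, had 5. At T12h 0.804% had 2 or more. More T48h than T12h summits were found for 1.28%. The genes most like Esrrb were taken as those with the most T48h summits among those with more at T48h than at T12h, over the 2 lists. In this order 4 genes came next, and 27 tied at 2 T48h summits and are not named. Lhx2, which encodes a LIM homeodomain factor of the eye field, had 5 T48h peaks with folds of 6.32 to 12.15 and 0 at T12h. Nr3c1, the glucocorticoid receptor gene, had 4 with folds of 8.77 to 24.74 and 0 at T12h. Gm52481, a predicted gene on chromosome Y, had 4 with folds of 3.19 to 4.42 and 0 at T12h. These 4 held 124 to 695 tags, and their folds were all below the T48h list's median of 7.66. Rnf220, a ubiquitin ligase gene, had 3 with folds of 6.96 to 14.7, and all 3 overlapped its T12h peak, which had a fold of 36.69.

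The distance between the outermost T48h summits is bounded by the length of the gene and its 20 kb margins. It was 157 kb in Esrrb, a gene of 161 kb, and 17.1 kb at Lhx2, a gene of 30.5 kb. It was 32.1 kb at Gm52481, a gene of 2.35 kb, 6.97 kb at Nr3c1, a gene of 109 kb, and 0.656 kb at Rnf220, a gene of 226 kb. The T48h widths were 316 to 477 bp at Esrrb, 268 to 827 bp at Lhx2, 171 to 297 bp at Nr3c1, 249 to 522 bp at Rnf220 and 469 to 3222 bp at Gm52481. Of the 5 genes, only Esrrb and Rnf220 had a peak at both times, with the higher fold at T48h in Esrrb and at T12h in Rnf220.

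**Figure D4:**
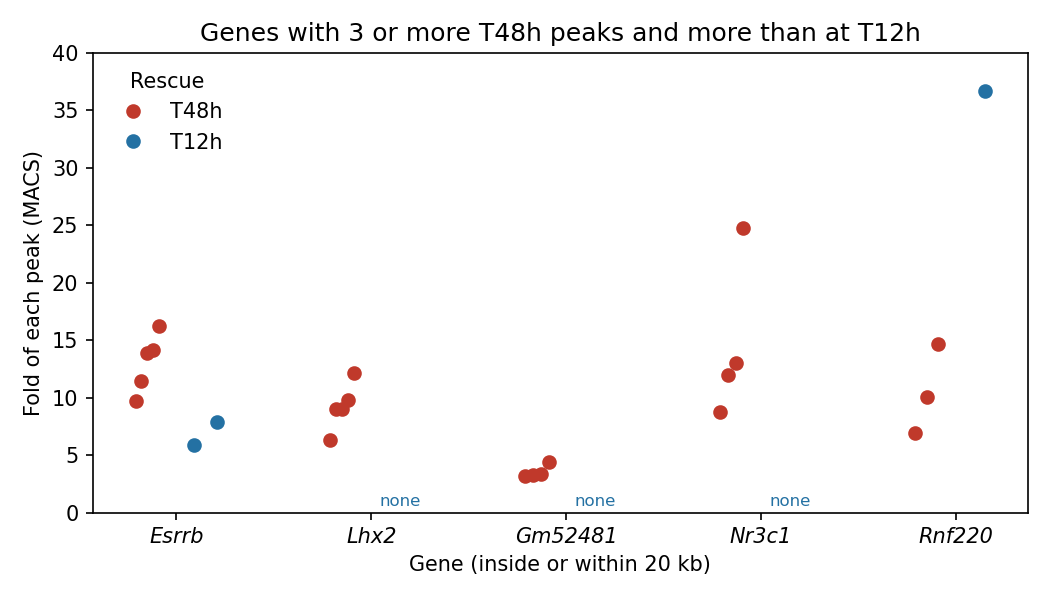
Fold of each peak (vertical axis) inside or within 20 kb of Esrrb and of the 4 genes most like it by number of T48h peaks, with T48h in red and T12h in blue. Each point is a peak and "none" marks a gene with 0 T12h peaks; Esrrb spans 9.7 to 16.25 at T48h and 5.92 to 7.86 at T12h.

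Other genes of the pluripotency network were set beside protein-coding genes in general, of which 3.48% had a summit within 20 kb at T48h and 7.69% at T12h. Of 26 such genes, 1 had a summit within 20 kb at T48h, or 3.85% (exact binomial 95% interval 0.0973 to 19.6), and 3 at T12h, or 11.5% (2.45 to 30.2). A summit inside the gene was found for 0 of the 26 at either time, and for 1.30% of all protein-coding genes at T48h and 3.22% at T12h, so the count of 0 does not set the list apart. Pou5f1, which encodes OCT4, had a summit within 20 kb at both times, outside the gene and over 1 kb from either end. The summit lay 5841 bp from the gene at T48h (36 tags over 364 bp, fold 6) and 5970 bp at T12h (75 tags over 638 bp, fold 9.44). At T12h a summit lay 11545 bp from Sox2 (fold 5.41), which encodes the partner of OCT4, and 6649 bp from Lin28a (fold 6.18), which encodes an RNA-binding inhibitor of let-7 maturation. The genes nearest to the summits near Pou5f1, Sox2 and Lin28a are not given here, and other genes may lie closer to them. The nearest summit to Klf4 was 1310 kb away at T48h and 1270 kb at T12h, and the nearest to Nanog was 4230 kb away at T48h and 2120 kb at T12h.

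The closest relatives of Esrrb had no peak nearby. The nearest summit to Esrra was 280 kb away at T48h and 243 kb at T12h, and the nearest to Esrrg was 1900 kb away at T48h and 1530 kb at T12h. Of 19 further nuclear receptor genes in all, these relatives included, 3 had a summit within 20 kb at T48h, or 15.8% (3.38 to 39.6), and 2 at T12h, or 10.5% (1.3 to 33.1). The share over all protein-coding genes was 3.48% at T48h and 7.69% at T12h. The list was chosen with earlier results of these data known, so the intervals are no test of it. The T48h share rests on 3 genes, and whether the list stands apart was not tested. At T48h the genes with a summit were Nr3c1, the retinoic acid receptor gene Rara (2 peaks, highest fold 7.45) and the thyroid hormone receptor gene Thra (fold 6.75, 170 bp from the gene). At T12h they were Rara (fold 16.02) and Nr2f2 (fold 8.25, 2663 bp from the gene), which encodes COUP-TFII. Both T48h peaks of Rara overlapped its T12h peak. Of 8 genes of coactivators and corepressors of nuclear receptors, 0 had a summit within 20 kb at T48h (interval up to 36.9%). At T12h 1 had a summit, Ncoa2, a p160 coactivator gene, with 16 tags and a fold of 7.23. With 3.48% of protein-coding genes at T48h and 7.69% at T12h having such a summit, these counts do not set the 8 genes apart.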

How the data were processed

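The authors deposited 1 peak table per ChIP library, which MACS 1.4.2 made from that library and a control library with a p cutoff of 1e-05 and a band width of 300 bp, per the file headers. At most 1 tag counted at a position, and the larger of ChIP and control was scaled down. The submitters' processing notes also name deepTools, HOMER 4.9.1, SAMtools 1.5, Bowtie2 and the build mm10. The deposited tags are raw counts in each peak region, and the deposited score is the p-value on a negative log10 scale multiplied by a constant. The deposited fold is a ratio to a background estimated locally by MACS. The false discovery rate is a percent, deposited by the authors from calls with ChIP and control exchanged. Peaks were called per library and not pooled, and no deposited value was recomputed.

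Peaks were assigned by summit (start plus summit minus 1) with 49976 RefSeq genes, 21896 of them protein-coding, in Python 3.11.15 with pandas 2.3.3, numpy 2.4.6, scipy 1.17.1 and matplotlib 3.10.9. Peaks overlapped when they shared at least 1 bp. Counts of planted peaks were recovered on simulated data. The members and gene lists were chosen with earlier results of these data known. Named were Esrrb, the genes most like it by number of T48h peaks, list members with a peak and the genes nearest to its peaks; Klf4 and Nanog are named in addition. All 26, 19 and 8 list members matched the annotation. No test across samples was possible with 1 library per time. The planned comparison of proteins was not made, since protein sequences were not used here.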

Additional observations from a re-analysis of the deposited data

How the results depend on the processing

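Esrrb kept 5 T48h peaks and 2 T12h peaks, 2 of them matched, under every window, overlap and score setting run, except that a deposited false discovery rate of at most 5% left 4 T48h peaks. All their summits lay inside the gene, and the nearest others were 743 kb away at T48h and 1020 kb at T12h. Matched summits lay 45 bp apart at site 2 and 9 bp at site 5. The window and matching settings therefore could not change the counts and add no support to them. Dividing tags by the fold turned the T48h to T12h ratio to 0.919 at site 2 and 0.929 at site 5. Such a quotient does not measure binding, and the ratios by tags per kb and RPM stayed above 1. At site 2, however, the interval of the RPM ratio, 0.969 to 1.95, included 1. The ratios by tags per kb were not scaled to the depth of the libraries. By number of peaks Esrrb shared place 1 of protein-coding genes with Lhx2 at T48h, and was at place 143 per 100 kb of gene. At T12h it was at place 35, 115 among all genes, 4 by gene span alone and 539 per 100 kb. Genes with equal numbers share a place. At 1 kb of either end, pluripotency members fell to 0 at each time, nuclear receptors to 1 at T48h and 0 at T12h, cofactors to 0 at T12h, and neighbours to 1 at T48h and 0 at T12h. With the gene span alone, pluripotency members fell to 0 at each time, nuclear receptors to 1 at T12h, and neighbours to 1 at T48h and 0 at T12h. In the upper 50% of each list by score, 1 pluripotency member was left at T12h, 1 nuclear receptor at each time, 0 cofactors at T12h, and 1 neighbour at T48h and 0 at T12h. Smaller windows and fewer peaks give fewer members by construction. Of 51 alternatives, 27 stayed within 1.5 times the value (counts and places) or within its counting interval (ratios), among them 4 for 5 T48h peaks and 2 for 3 nuclear receptors with the gene span alone at T48h, 22 moved and 2 turned round. Among the 27 are the window and matching settings that could not change the counts at Esrrb. No paired analysis was possible because neither rescue time was replicated. Tag counts of 27 to 91 limit the precision of each site.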

Other observations

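Ordered by the ratio of T48h to T12h fold, the 7 uppermost of the 228 overlapping pairs of peaks held both Esrrb pairs. A further 3 of them had Myod1, which encodes a muscle transcription factor, as the nearest protein-coding gene. The Myod1 pairs had folds of 78.16, 62.13 and 50.24 at T48h and of 26.21, 27.87 and 27.25 at T12h. The remaining pairs of the 7 lay nearest to Cst10, with a fold of 19.89 at T48h and 9.55 at T12h, and to Sos2, a guanine nucleotide exchange factor gene on chromosome 12, with 11.37 at T48h and 5.95 at T12h. The Esrrb pairs had lower T48h folds than the Myod1 pairs, 13.93 and 14.15. These pairs were singled out after their values were seen.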
